A study of Mus musculus with 2 samples.

Results

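The genes described here encode the proteins of the cytosolic ribosome. They were chosen by symbol: every gene of the count table named Rpl or Rps followed by a digit, with the Rps6k kinases left out, together with Rplp0, Rplp1, Rplp2 and Rpsa. The rule found 86 of 14714 genes. Of these, 77 encode ribosomal proteins, 31 of the small 40S subunit and 46 of the large 60S subunit. The others are 4 paralogs (Rpl22l1, Rps27l, Rpl36al and Rpl7l1), 4 genes named as pseudogenes or a retrogene (Rpl10-ps3, Rpl36a-ps1, Rpl9-ps6 and Rps27rt), and Rps19bp1, which encodes a binding protein of Rps19 and no part of the ribosome.

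Cells of digested mouse aortas were profiled with 10x 3' tags in 2 libraries, 1 per genotype, Apoe-/- and EC-iDKO/Apoe-/-. Both groups lack Apoe, which leads to atherosclerosis, and both were fed a western diet for 12 weeks. EC-iDKO is, from knowledge of the line, an inducible deletion of the epsins Epn1 and Epn2 in endothelial cells, and its library is called the double knockout below. The sources used here do not give age, the number of mice pooled per library or the Cre driver. CD31 beads appear in the protocol, while the cell type label reads all cells.

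A ribosome holds 1 copy of nearly every ribosomal protein, so cells are known to make these proteins in a balanced way. Their messengers are among the most abundant in a cell and begin with a C and a run of pyrimidines, the terminal oligopyrimidine (TOP) motif, through which mTORC1 and LARP1 control their translation. Free Rpl5 and Rpl11 bind Mdm2 and thereby stabilise p53. In the artery, ribosome content is known to grow with cell growth and matrix synthesis, and leukocytes typically carry a large share of ribosomal protein messengers.

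Because the TOP motif is the feature that the class is known for, the letters around the RefSeq start are shown for members at both ends and in the middle of the comparison below. Each window runs 5′ to 3′ on the gene's own strand and holds 10 bases before the start and 20 from the start on. The longest run of C or T that touches the 5 bases on either side of the start is in capitals. Rpl35, Rpl38, Rps27, Rplp2 and Rpl39 were lower in the double knockout, Rpl13, Rplp0, Rps2 and Rps3a1 higher, and Rpl13a, Rps6 and Rpl15 near the middle. They were chosen to show long and short runs and do not give the frequency of either.
Rpl35: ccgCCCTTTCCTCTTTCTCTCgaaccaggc
Rpl38: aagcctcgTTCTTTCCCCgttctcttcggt
Rps27: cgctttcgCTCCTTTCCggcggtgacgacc
Rplp2: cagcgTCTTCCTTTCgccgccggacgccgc
Rpl39: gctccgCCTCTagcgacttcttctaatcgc
Rpl13: tttcgcctgaTTTTgattggcgtttgagat
Rplp0: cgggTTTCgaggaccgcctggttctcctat
Rps2: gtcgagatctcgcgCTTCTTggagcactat
Rps3a1: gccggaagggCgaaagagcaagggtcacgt
Rpl13a: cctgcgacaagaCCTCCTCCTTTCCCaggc
Rps6: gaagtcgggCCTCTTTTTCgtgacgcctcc
Rpl15: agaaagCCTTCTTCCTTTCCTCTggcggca

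These windows are from RefSeq on GRCm38.p6. Rpl35 is at chr2:39005112-39005141 on the minus strand, Rpl38 at chr11:114668570-114668599 on the plus strand, Rps27 at chr3:90213629-90213658 on the minus strand, Rplp2 at chr7:141447641-141447670 on the plus strand and Rpl39 at chrX:37085203-37085232 on the minus strand. Rpl13 is at chr8:123102340-123102369, Rplp0 at chr5:115559457-115559486 and Rps2 at chr17:24720053-24720082, all on the plus strand, and Rps3a1 at chr3:86142649-86142678 on the minus strand. Rpl13a is at chr7:45128726-45128755, Rps6 at chr4:86857348-86857377 and Rpl15 at chr14:18270967-18270996, all on the minus strand. Each window joins the end of the promoter to the first transcribed bases. A printable window was found for 63 of the 86 members, which is 73.3% and too few for a statement over the whole set, so a share over all members was not used. Among the 20 members called lower below, 16 had a window, and in 6 of these a run of at least 8 pyrimidines touched the start. Among the 5 called higher, 4 had a window, and none held such a run. Among the 61 called neither way, 43 had a window, and 18 of these held one, a share like that of the lower members. The same run was found in 12.5% of the 11059 genes of the count table with a promoter and in 11.4% of all 27025. An annotated start can lie some bases away from the start used in the artery, so a short run says only that these letters are not in this window.

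The libraries differed in depth. The Apoe knockout library held 2428 cells with a median of 3770 UMIs (unique molecular identifiers, which count captured messenger molecules), and the double knockout library held 5489 cells with a median of 769. Every Apoe knockout barcode was deposited in 2 identical copies and was counted once. The libraries had 5 barcodes in common. Without the 10 cells that carry them, the counts of members higher and lower in whole libraries, the SMC class and cluster 9 were the same. Cluster 9, the only cluster of at least 50 cells in both libraries in the deposited EC class, had all 6 endothelial markers in both libraries, at a sum of 1924 and 3593 counts per 1000000 UMIs (CPM), beside 28700.3 and 27883 CPM of 6 smooth muscle markers. Cluster 19, with 9 and 67 cells, also had all 6 endothelial markers, at 1454 and 4518 CPM. Epn1 had 10 and 2 UMIs in cluster 9 and Epn2 had 20 and 26, and 3' tags do not read an upstream deletion. With 1 library per genotype there is no test. All intervals are 95% and cover counting error only, and genotype, mice and library preparation cannot be told apart.

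The members together took 9.43% (exact binomial interval 9.41 to 9.45) of the UMIs of the Apoe knockout library and 8.66% (8.64 to 8.68) of those of the double knockout. These shares rest on 1254580 and 593596 UMIs. The log2 ratio, taken throughout as double knockout over Apoe knockout, was -0.12 (-0.13 to -0.12). The SMC class was taken without cluster 15, whose 4 fat cell markers summed to 0 CPM in the Apoe knockout and 41345 CPM in the double knockout. In the rest of the class, the shares were 8.997% and 8.39%, a log2 ratio of -0.10. In cluster 9 they were 10.4% and 10.1%, a log2 ratio of -0.04 (-0.07 to -0.02). Marker sums in cluster 9 differed too, with 1868 and 14.8 CPM over 6 macrophage markers and 1924 and 163 CPM over 5 fibroblast markers. C1qa, C1qb, Adgre1 and Csf1r were at 0 in the double knockout cluster, and the part of these cells in the result was not tested.

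The direction of the total depended on how cells were weighted. When each cell counted once, the mean share per cell was 8.46% for Apoe knockout cells and 8.74% for double knockout cells, so the order of the libraries turned. In cells with 1000 to 2000 UMIs, a depth that both libraries reach, the shares were 6.82% and 8.67%, a log2 ratio of 0.35. At that depth the SMC class had a log2 ratio of 0.63. In cluster 9 it was 0.038 at that depth. It was 0.051 there in cells of at least 1000 UMIs with under 10% mitochondrial UMIs, so the sign turned. No interval was taken for these small values. Cluster 9 held 27 Apoe knockout cells with 1500 to 2000 UMIs and 41 double knockout cells with 1000 to 1500.

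In smooth muscle cells of the Apoe knockout library, the share was lower in shallow cells than in deep ones. In the SMC class without cluster 15, the share was 5.40% in 66 Apoe knockout cells under 800 UMIs, 5.20% in 115 cells with 1500 to 2000 UMIs and 6.61% in 363 cells with 2000 to 4000. It was 9.64% in 422 cells with 4000 to 8000 UMIs and 9.503% in 427 deeper cells. The double knockout showed no such step, with 8.56% in 2307 cells under 800 UMIs and 8.19% in 169 cells with 4000 to 8000. The Apoe knockout cells with 1500 to 2000 UMIs also had 9.97% mitochondrial UMIs and 6.61% of Malat1 and Neat1, 2 nuclear RNAs, against 5.65% and 3.70% in double knockout cells of that depth. In Apoe knockout cells of at least 8000 UMIs these were 3.89% and 3.95%. Whether the shallow cells were damaged was not tested.

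**Figure D1:**
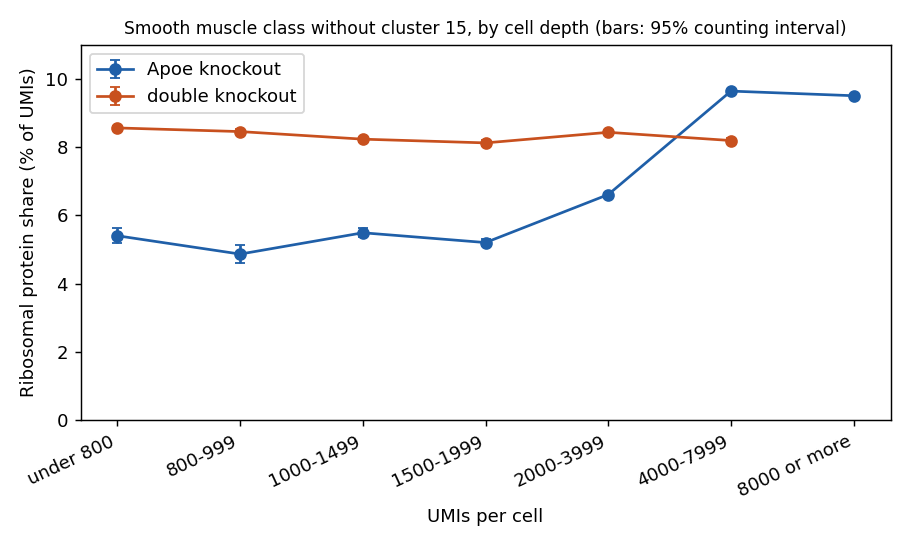
Ribosomal protein share of UMIs (vertical axis, percent) in smooth muscle class cells without cluster 15, by UMIs per cell (horizontal axis), with 95% counting intervals as bars. The Apoe knockout lies between 4.86% and 5.49% below 2000 UMIs and at 9.503% in the deepest cells, while the double knockout stays between 8.12% and 8.56%.

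Across the 21 deposited clusters, the share of ribosomal protein UMIs was highest in cluster 20 and lowest in cluster 18 in both libraries. Cluster 20 stood at 21.4% (21.1 to 21.8) in 26 Apoe knockout cells and 17.9% (17.5 to 18.4) in 27 double knockout cells. It is deposited in the EC class, yet its Apoe knockout cells had all 5 T cell markers at a sum of 2692 CPM, against 240.0 CPM of 6 endothelial markers. In the double knockout it had no T cell marker and 1359 CPM of endothelial markers, so the 2 sets of cells differ in makeup. Among clusters of at least 50 cells in both libraries, cluster 13, which held macrophage markers, was highest, with 15.8% of Apoe knockout UMIs and 11.05% of double knockout UMIs. The smooth muscle cluster 1 had 11.2% and 10.7%, and the smooth muscle cluster 2 had 5.72% and 6.65%. Cluster 18 had 3.62% (3.46 to 3.78) in 35 Apoe knockout cells and 2.26% (2.08 to 2.45) in 27 double knockout cells. In that cluster Malat1 and Neat1 took 12.8% and 15.3% of the UMIs, and mitochondrial genes 9.69% and 11.05%.

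Over the 18 clusters with at least 50 cells in both libraries, the share ran from 5.72% to 15.8% in the Apoe knockout, a range of 2.76-fold, and from 6.65% to 11.05% in the double knockout, a range of 1.66-fold. Clusters with a high share in one library tended to have a high share in the other, with a Spearman rho of 0.66 over 18 clusters. These points share 2 libraries and clusters that the authors made from all genes, so this is a description. Within the Apoe knockout library, the share went down with the share of Malat1 and Neat1 over the same clusters (rho -0.78), and within the double knockout the rho was -0.42.

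The double knockout share was lower than the Apoe knockout share in 12 of the 18 clusters and higher in 6, and each counting interval left out 0. The mean log2 ratio over clusters was -0.05, in a range from -0.52 to 0.26. Cluster 13 had the lowest ratio, -0.52 (-0.56 to -0.48). In that cluster the 6 macrophage markers summed to 11457 CPM in Apoe knockout cells and 3544 in double knockout cells, with Adgre1 at 0 in the latter, and the 6 smooth muscle markers to 11798 and 33819.5 CPM. The part of smooth muscle RNA in this result was not tested. Cluster 14 had the highest ratio, 0.26 (0.22 to 0.29), with shares of 6.74% and 8.04%. Malat1 and Neat1 took 5.86% and 4.06% in that cluster. There, 3 pericyte markers summed to 4291 and 1914 CPM and 5 fibroblast markers to 757 and 220 CPM. The 6 smooth muscle markers summed to 21578 and 24312 CPM. The part of this makeup in the ratio was not tested.

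**Figure D2:**
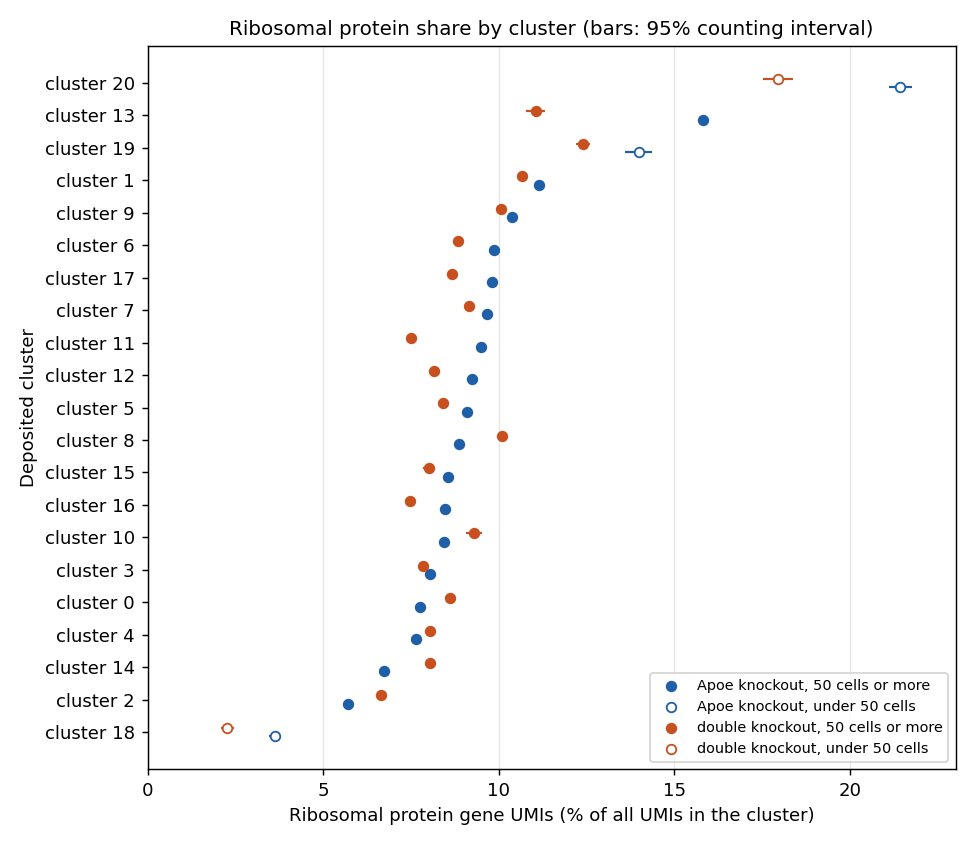
Ribosomal protein share of all UMIs in each deposited cluster (horizontal axis, percent), Apoe knockout in blue and double knockout in orange, with 95% counting intervals. Cluster 20 is highest and cluster 18 lowest in both libraries, and clusters 13 and 11 show the Apoe knockout well to the right of the double knockout.

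The balance of the subunits moved little, but in the same direction in every cluster compared. The 31 genes of the 40S subunit had 0.75 UMIs for each UMI of the 46 genes of the 60S subunit in the Apoe knockout library and 0.78 in the double knockout. Over the 18 clusters the ratio ran from 0.73 to 0.79 and from 0.74 to 0.82, and it was higher in the double knockout in each of the 18. In cluster 1 it was 0.73 and 0.80. The clusters share 1 pair of libraries, so this is a description.

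Single members did not move alike. A member counts as higher or lower below where its CPM differed between the libraries by 1.5-fold or more and the counting interval of the ratio left out 1. Genes needed at least 100 UMIs over both libraries to enter. All 86 members reached that minimum in whole libraries. There, 20 members were lower in the double knockout and 5 higher. Over all 10122 genes that reached the minimum, 10.1% were lower and 9.13% higher. The median log2 ratio was -0.18 over the 86 members and 0.02 over all genes. In the SMC class without cluster 15, 21 of 85 members were lower, against 6.56% of all genes, and 6 were higher, against 9.37%. In cluster 9, 17 of 80 were lower, against 14.6%, and 7 were higher, against 12.5%.

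In cells with 1000 to 2000 UMIs, the balance of the counts turned. In whole libraries, 20 of the 81 members with enough UMIs were higher and 9 lower, against 15.9% and 13.6% of all 3178 genes tested at that depth. In the SMC class without cluster 15, 37 of 80 were higher and 5 lower, against 21.2% and 14.5% of 2135 genes. All 5 members higher in whole libraries were higher at that depth too, and 9 of the 20 lower ones were lower.

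The spread was wide for genes whose products meet in 1 particle: over the 77 ribosomal proteins the log2 ratio had an SD of 0.64 and a range of 3.67.

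**Figure D3:**
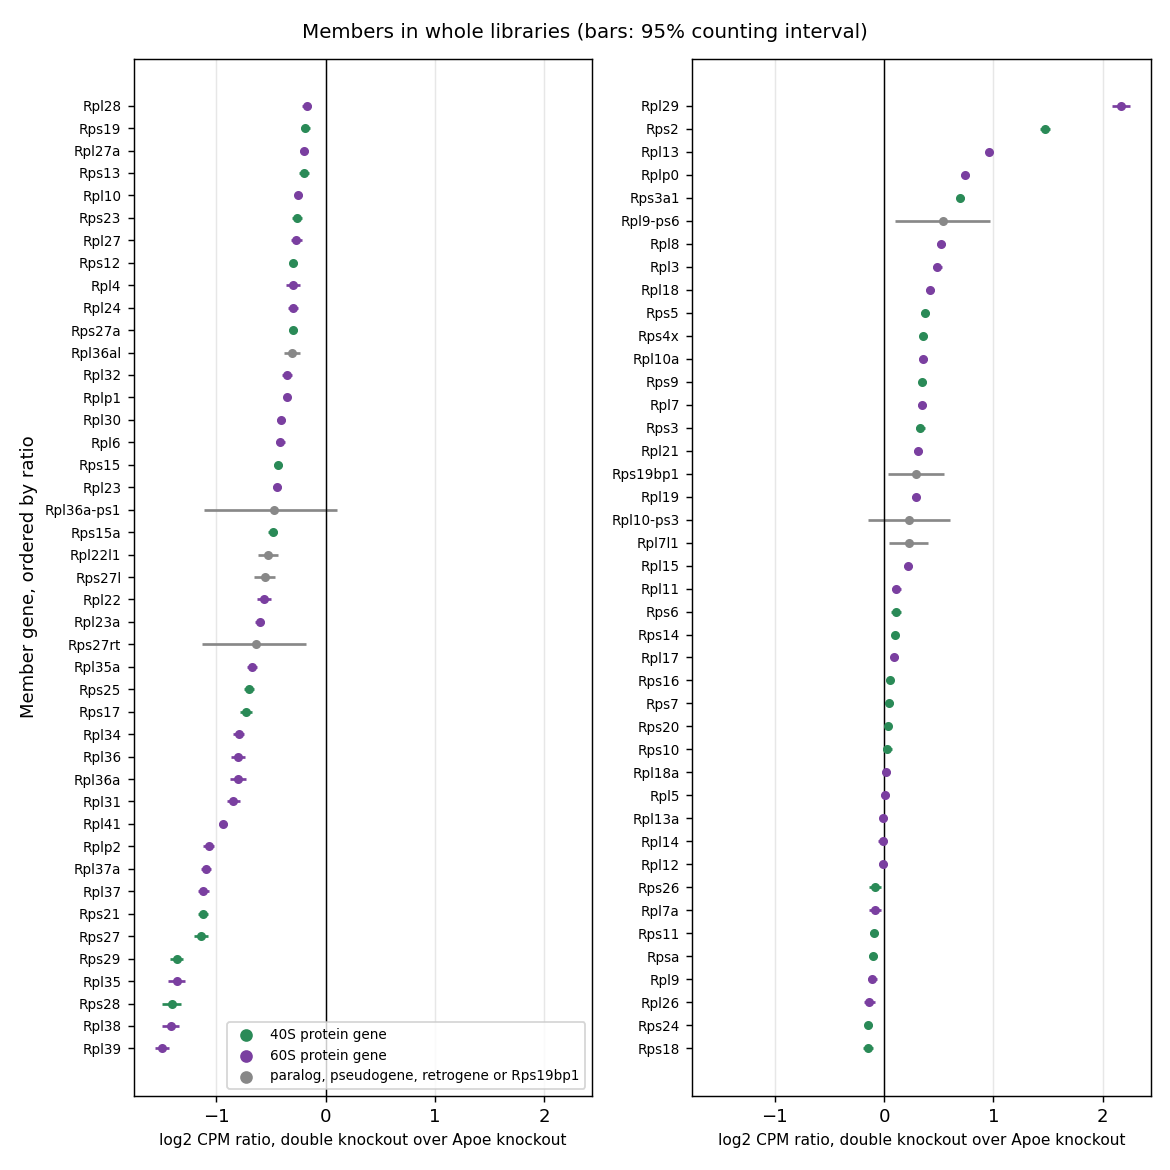
Difference in log2 CPM, double knockout minus Apoe knockout (horizontal axis), for 85 of the 86 members in whole libraries, ordered by ratio (1 is not drawn), with 95% counting intervals as bars. The 40S genes (green) and 60S genes (purple) are mixed along the order, from Rpl39 at -1.50 to Rpl29 at 2.17.

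The genes named next are the 5 lowest and 5 highest by ratio. The members that were lower included small proteins of both subunits. Rpl39, a small protein at the exit tunnel of the 60S subunit, stood at 990.1 CPM (13173 UMIs) among Apoe knockout cells and 350.1 CPM (2399 UMIs) among double knockout cells, which was 2.83-fold lower (2.71 to 2.96). Rpl38, whose loss in mice disturbs the axial skeleton, stood at 642 and 239.9 CPM, 2.68-fold lower (2.54 to 2.82). Rpl35, which also lies near the tunnel exit, stood at 572 and 222 CPM, 2.58-fold lower (2.44 to 2.72). These 60S genes were lower in all 18 clusters. Their log2 ratios were -1.02, -0.78 and -0.85 in cells with 1000 to 2000 UMIs. By the GENCODE annotation of GRCm38, the gene of Rpl39 spans chrX:37082520-37085402 on the minus strand and that of Rpl38 spans chr11:114668524-114672331 on the plus strand.

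Among the 40S genes, Rps28 stood at 541 and 204 CPM, 2.66-fold lower (2.51 to 2.82). Rps29, a zinc-binding protein, stood at 1063 and 413 CPM, 2.57-fold lower (2.47 to 2.68). Rps27, Rps21, Rpl37 and Rpl37a, chosen after their values were seen, were 2.20-, 2.18-, 2.17- and 2.14-fold lower. Each of these was lower in all 18 clusters too. Rps28 and Rps29 had log2 ratios of -0.94 and -0.82 in cells with 1000 to 2000 UMIs. At that depth Rpl37a did not pass as lower in whole libraries. Rpl37, Rpl37a and Rps29 did not pass there in the SMC class without cluster 15.

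The members that were higher encode longer proteins. Rpl29, a 60S protein also described as a heparin-binding protein, stood at 129 CPM (1711 UMIs) among Apoe knockout cells and 577 CPM (3955 UMIs) among double knockout cells, a ratio of 4.49 (4.24 to 4.75). Rps2, a 40S protein at the entry of the messenger channel, stood at 559 and 1554 CPM, a ratio of 2.78 (2.70 to 2.86). Rpl13 stood at 1512 and 2939.7 CPM, a ratio of 1.94 (1.91 to 1.98), and was the most abundant member by tag count in the double knockout. Rps3a1, a 40S protein, stood at 1351 and 2193 CPM, a ratio of 1.62 (1.59 to 1.66). By the same annotation, the genes lie on the plus strand for Rpl29 (chr9:106429454-106431568), Rps2 (chr17:24718116-24721929) and Rpl13 (chr8:123102350-123105244). The 4 genes Rpl29, Rps2, Rpl13 and Rps3a1 were higher in all 18 clusters, with log2 ratios from 1.75 to 2.79 for Rpl29 and from 0.94 to 1.88 for Rps2. Among cells with 1000 to 2000 UMIs, the log2 ratios were 2.37 for Rpl29, 2.07 for Rps2, 1.26 for Rpl13 and 1.27 for Rps3a1.

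The P stalk recruits elongation factors to the ribosome, and Rplp0 and Rplp2 went in opposite directions. Rplp0, the base of the stalk, stood at 994 and 1663 CPM, a ratio of 1.67 (1.63 to 1.72), and was higher in 18 of 18 clusters. Its partner Rplp2 stood at 1109 and 528 CPM, 2.10-fold lower (2.03 to 2.18), and was lower in 18 of 18 clusters. Rplp1, the other partner, stood at 3159.6 and 2468 CPM, a ratio of 0.78 (0.77 to 0.80) that did not reach the rule, and was lower in 15 of 18 clusters. In cells with 1000 to 2000 UMIs, the log2 ratio was 1.23 for Rplp0, -0.64 for Rplp2 and 0.30 for Rplp1, whose direction turned. In the assembled stalk the partners stand in a fixed proportion to Rplp0.

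The calls of cluster 9 and of the SMC class without cluster 15 mostly overlapped. All 17 members lower in cluster 9 were lower in the SMC class too. Rpl29, Rps2, Rpl13, Rplp0 and Rps3a1 were higher in both, while Rpl8 and Rpl3 passed as higher in cluster 9 and not in the SMC class. Conversely, Rpl22, Rpl34, Rpl35a and Rps27l passed as lower in the SMC class and not in cluster 9. Rpl9-ps6 passed as higher in the SMC class but had too few UMIs in cluster 9 to enter there. The differences between these populations were not tested. The same overlap was not counted over all genes, so it cannot be called particular to the members. Both populations come from the same pair of libraries, and cluster 9 also held smooth muscle markers, as given above. In cluster 9, Rpl29 had 44 and 198 UMIs, a ratio of 4.54 (3.26 to 6.44), Rpl13 a ratio of 2.39 (2.13 to 2.68) and Rpl3, a core protein of the 60S subunit, 1.73 (1.46 to 2.05). Rpl39 had 317 and 110 UMIs there, 2.86-fold lower (2.29 to 3.58), and Rpl31 was 2.47-fold lower (1.95 to 3.13). In the SMC class without cluster 15, Rpl29 had a ratio of 4.61 (4.30 to 4.95) and Rpl39 was 2.73-fold lower (2.59 to 2.87).

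Over the 18 clusters, 20 ribosomal protein genes were lower in every one and 10 were higher in every one. Of all 10122 genes with at least 100 UMIs, 1.02% were lower and 1.84% higher in every cluster, and of the 1557 with a mean of at least 100 CPM, 4.75% and 5.65%. The 20 held 8 genes of the 40S and 12 of the 60S subunit. The 10 held 3 and 7. All clusters come from the same pair of libraries, so they are not separate trials.

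**Figure D4:**
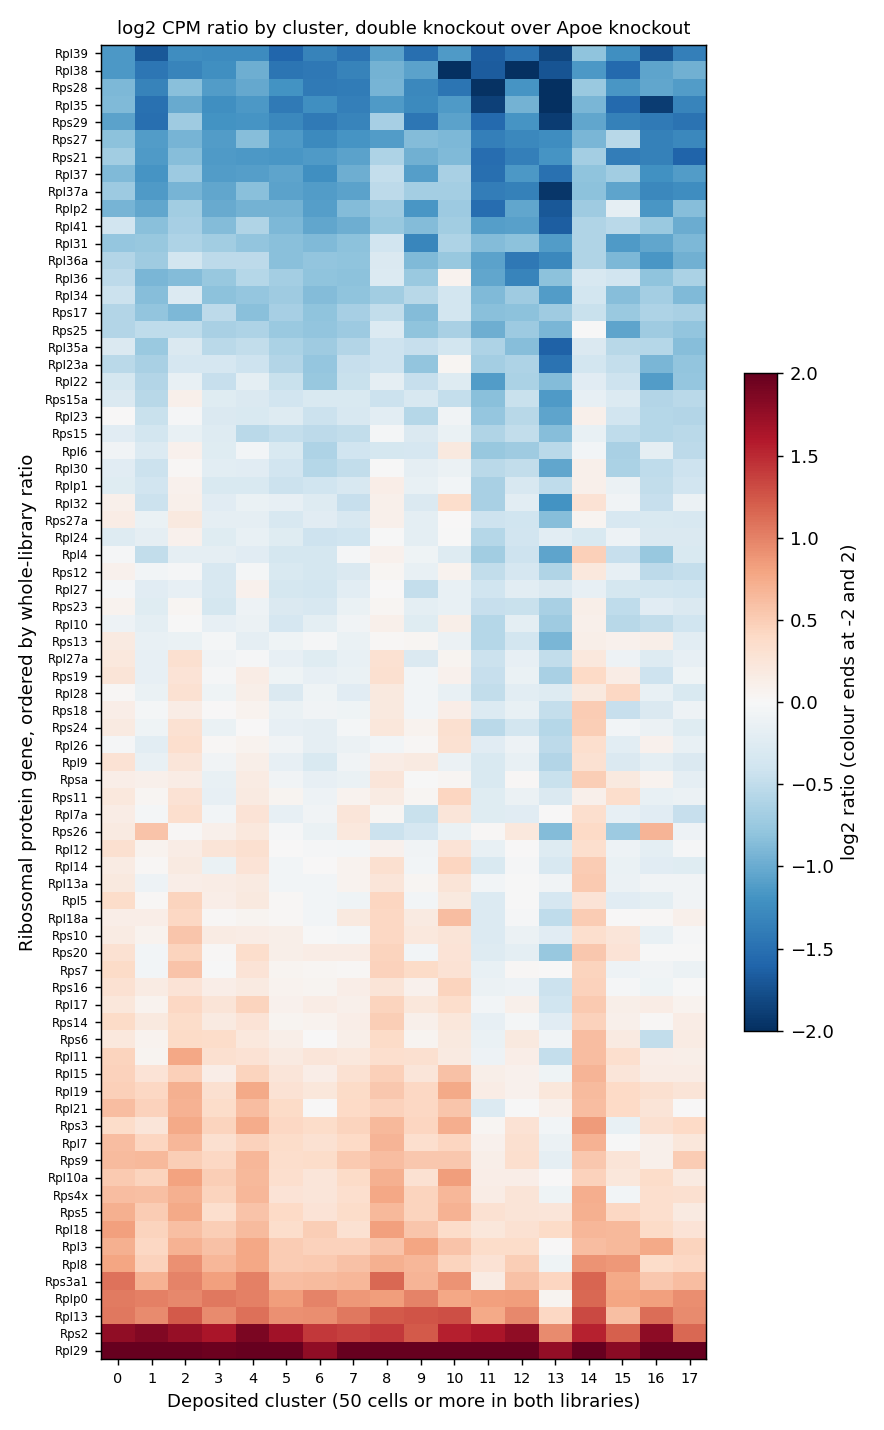
Difference in log2 CPM, double knockout minus Apoe knockout, for 76 of the 77 ribosomal protein genes (rows, ordered by whole-library ratio) in the 18 clusters with at least 50 cells in both libraries (columns), blue for lower and red for higher. The upper rows are blue and the lower rows red across the columns, and cluster 13 is bluer and cluster 14 redder than the others.

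The length of the encoded protein went along with the ratio among the members. This comparison was added after the ratios were seen. The 9 ribosomal proteins of up to 100 amino acids were all called lower, with log2 ratios from -1.50 to -0.94 and a median of -1.14. The 27 of 101 to 150 amino acids had a median of -0.41, and 9 of them were lower. The 19 of 151 to 200 amino acids had a median of 0.03. The 19 of 201 to 300 had a median of 0.22, and 3 of them were higher. Across the 77 genes, the Spearman rho of the log2 ratio with protein length was 0.78, and genes of 1 pair of libraries are not independent replicates. By cluster the rho ran from 0.64 to 0.78. Among the 31 genes of the 40S subunit it was 0.74, and among the 46 of the 60S subunit 0.79. Fewer of the 9 shortest were called lower in cells with 1000 to 2000 UMIs. Rpl37a and Rpl41 were not called lower in whole libraries at that depth. In the SMC class without cluster 15, Rpl37, Rpl37a, Rpl38, Rpl41 and Rps29 were not called lower there.

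Among other genes, the shortest class also had the lowest median, at a smaller size. Of 222 other nuclear coding genes of up to 100 amino acids, 65 were lower and 20 higher, with a median log2 ratio of -0.19. Their median was 0.14 from 151 to 200 amino acids, 0.04 from 301 to 500 and -0.03 above 1000. Across 9735 such genes the rho was -0.08. Where only the 78 short genes with a mean of at least 100 CPM were taken, 21 were lower and 4 higher, with a median of -0.25.

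**Figure D5:**
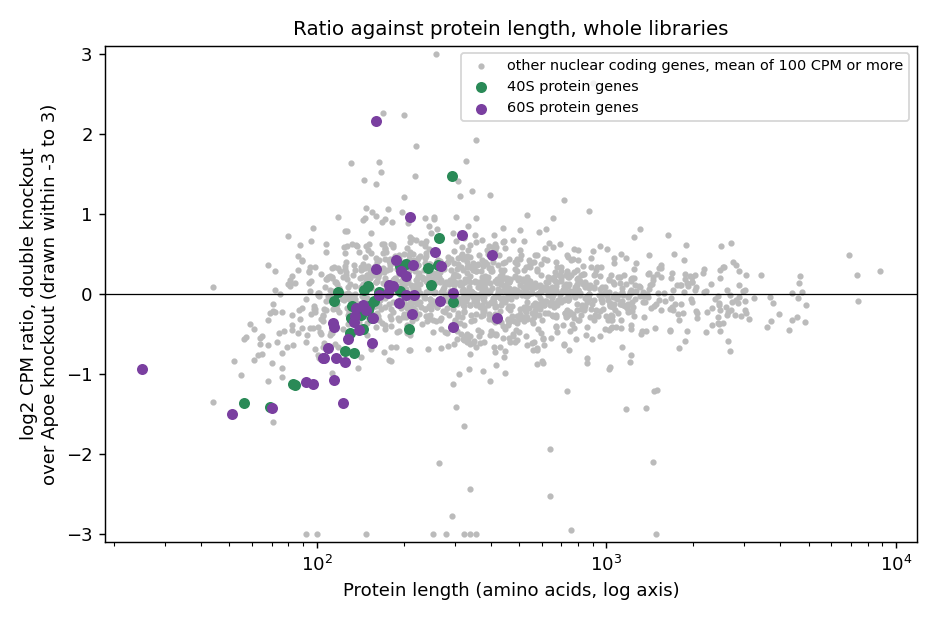
Difference in log2 CPM, double knockout minus Apoe knockout (vertical axis), against protein length (horizontal log axis, amino acids) for 40S genes (green), 60S genes (purple) and 1444 other nuclear coding genes with a mean of at least 100 CPM (grey, 10 of them drawn at the edge of the axis). The median of ribosomal protein genes climbs from -1.14 up to 100 amino acids to 0.22 from 201 to 300, where 7 of 19 lie below 0. Grey points stay around 0 over most lengths.

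Depth was compared within each library in the same way. Among Apoe knockout smooth muscle cells, the log2 ratio of 304 cells under 2000 UMIs over 427 cells of at least 8000 had a rho of -0.16 with protein length over the 77 genes. Rpl39 stood at -0.79 and Rpl29 at -0.65 in that contrast. Among double knockout smooth muscle cells, 2307 cells under 800 UMIs over 773 cells of at least 2000 gave a rho of -0.08, with Rpl39 at 0.06 and Rpl29 at 0.08. Between the libraries at 1000 to 2000 UMIs per cell, the rho was 0.78.

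Reads of many members can be shared with copies elsewhere in the genome. A near-identical copy, at least 98% over at least 90 of the last 300 bases of the transcript, was found for 52 of the 86 members. Rps2 had 24 such genes, Rpl7a 20, Rps12 14 and Rpl29 9, so their counts are uncertain. Rps3a1 had 5, Rpl13, Rpl38, Rps28 and Rps29 had 3 each, and Rpl39 and Rpl35 had 2 each. Of the 5 highest and 5 lowest members by ratio, only Rplp0 had no copy. None was found either for Rplp2, Rps21, Rpl37 and Rpl37a, which were lower but not among the 5 lowest. The part of copies in the ratios was not tested. Across the 32 ribosomal proteins without a copy, the rho of ratio and protein length was 0.65.

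Several members with known roles outside the ribosome lay near the middle in whole libraries. At 1000 to 2000 UMIs per cell they lay higher, at log2 ratios of 0.64 for Rps6, 0.62 for Rpl5, 0.45 for Rpl11 and 0.48 for Rpl13a, and Rps6 and Rpl5 passed as higher there. Over all cells, Rps6, the substrate of S6 kinase, stood at 950.2 and 1025 CPM, a ratio of 1.08 (1.05 to 1.11). Rpl5 stood at 1245 and 1255 CPM, a ratio of 1.01 (0.98 to 1.03), and its partner Rpl11 at 911 and 984 CPM, a ratio of 1.08 (1.05 to 1.11). Rpl13a, which is released from the ribosome upon interferon signalling, stood at 1476 and 1470.4 CPM, a ratio of 1.00 (0.97 to 1.02).

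Rpsa, also known as the laminin receptor, stood at 1461 and 1360.4 CPM, a ratio of 0.93 (0.91 to 0.95). Rps19, mutated in Diamond-Blackfan anaemia, stood at 1088 and 956 CPM, a ratio of 0.88 (0.85 to 0.90). Rps14 stood at 1812 and 1943 CPM, a ratio of 1.07 (1.05 to 1.10). None of these reached the rule in whole libraries. Cells with 1000 to 2000 UMIs gave log2 ratios of 0.21 for Rpsa, 0.35 for Rps19 and 0.56 for Rps14.

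The X-linked members differed among themselves. Rpl39 was lower as given above, and Rpl36a stood at 517 and 296 CPM, 1.74-fold lower (1.66 to 1.83). Rpl10, which joins the 60S subunit late in its assembly, stood at 1824 and 1532 CPM, a ratio of 0.84 (0.82 to 0.86). Rps4x stood at 1498 and 1923 CPM, a ratio of 1.28 (1.26 to 1.31). With 1000 to 2000 UMIs per cell, the log2 ratio was 0.35 for Rpl10 and 0.94 for Rps4x, which passed as higher there.

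By tag count, the member with the highest mean of both libraries was Rplp1, followed by Rpl13, and Rps12 and Rps14 were also among the 5 highest. A 3' tag gives at most 1 UMI per captured molecule, so no scaling for length was made, and capture can still differ between genes. Rps12 stood at 2293 and 1867 CPM. The lowest were Rpl36a-ps1, Rps27rt, Rpl9-ps6 and Rpl10-ps3, all under 15 CPM in each library, and Rps19bp1, at 25.1 and 30.8 CPM. The order of the 77 ribosomal proteins by CPM had a Spearman rho of 0.70 between the libraries. Rpl41, which encodes a peptide of 25 amino acids, stood at 1981 and 1032 CPM, 1.92-fold lower (1.87 to 1.97). Its log2 ratio in cells with 1000 to 2000 UMIs was -0.26, which did not reach the rule.

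Among the paralogs, Rpl22l1 was low beside its parent. Rpl22l1 stood at 274 and 190.0 CPM, a ratio of 0.69 (0.65 to 0.74), and its parent Rpl22 at 623 and 422 CPM, a ratio of 0.68 (0.65 to 0.71). Rps27l, a p53 target, stood at 268 and 182 CPM, a ratio of 0.68 (0.64 to 0.72). Rpl36al had a ratio of 0.81 (0.77 to 0.85), and Rpl7l1 one of 1.17 (1.04 to 1.32). Rps27rt, whose 3' end is nearly that of Rps27, had 155 and 51 UMIs, 1.57-fold lower (1.13 to 2.19). Rpl36a-ps1 and Rpl10-ps3 had intervals that held 1, and Rpl9-ps6 a ratio of 1.45 (1.07 to 1.96).

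Within the member UMIs, a few genes took different shares from cluster to cluster. Rps26, a 40S protein at the messenger exit, varied most in the Apoe knockout library, from 4.59 per 1000 member UMIs in cluster 16 to 11.2 in cluster 15. In the double knockout it ran from 5.61 in cluster 8 to 8.32 in cluster 16, so the order of clusters was not the same. Rplp0 was highest in cluster 8 in both libraries, at 15.1 and 23.7 per 1000, against medians over clusters of 9.80 and 19.0. In cluster 8 the 5 fibroblast markers summed to 14976 and 5210.2 CPM, all 5 being detected in both libraries. The 6 smooth muscle markers summed there to 11835 and 17325 CPM and the 5 chondrocyte-like markers to 6254 and 92.8 CPM. The cells of cluster 8 thus differ in makeup between the libraries. Rps19, picked after its values were seen, was highest in cluster 13 in both libraries, at 15.5 and 14.1 per 1000 (medians 10.8 and 11.2).

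Rps28 was highest in cluster 13 of the Apoe knockout, at 8.01 per 1000 against a median of 5.30, and ran from 1.73 to 2.81 in the double knockout. Rps2 was highest in cluster 8 of the Apoe knockout at 7.51 and in cluster 12 of the double knockout at 22.7. Rps27l ran from 2.09 to 3.63 in the Apoe knockout and Rpl22l1 from 2.10 to 3.72. The clusters were made from all genes, so none of these differences is a test of a cell type.

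Fau and Rack1 belong to the ribosome under other names. Fau, which encodes a 40S protein fused to a ubiquitin-like part, stood at 1613 and 1265 CPM, a ratio of 0.78 (0.76 to 0.80). Rack1, a scaffold on the 40S subunit, stood at 966 and 995 CPM, a ratio of 1.03 (1.00 to 1.06).

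The genes outside the rule whose CPM was most like the member total were found over 37 pseudobulks, the sums of each cluster in each library with at least 50 cells. Among 205 genes with at least 20 UMIs in each, Fau had the highest Pearson r of log2 CPM (0.91), followed by Rack1 (0.90), the elongation factor genes Eef1a1 (0.83) and Eef1b2 (0.72), and Gabarap (0.70), an autophagy gene. Within the 18 Apoe knockout pseudobulks the r of Fau was 0.96, and within the 19 of the double knockout 0.91. These points share libraries, depth and a common denominator. Members themselves had lower r where they differed between libraries, such as 0.14 for Rpl29 over all 37, which was 0.86 within the Apoe knockout and 0.48 within the double knockout.

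Over all genes, 9.13% were higher and 10.1% lower in whole libraries, and the lists of related genes that follow are read against these shares. Of 33 translation factor genes, 1 was higher and 1 lower in whole libraries, with a median log2 ratio of 0.13. Eif5a, a factor that helps ribosomes through prolines, was higher at 206 and 351 CPM, a ratio of 1.70 (1.61 to 1.80), and Eif2s2, a subunit of the initiation factor that carries the initiator tRNA, was 1.52-fold lower. Tpt1, a TOP messenger that stands in both the translation factor and the TOP list, stood at 3218 and 4798 CPM, a ratio of 1.49 (1.47 to 1.51). Of 17 genes for the nascent chain complex, the signal recognition particle and the translocon, 1 was lower and none higher: Sec61g, a short translocon subunit, was 2.12-fold lower. Naca stood at a ratio of 1.34 (1.30 to 1.38) and Srp9 at 1.39 (1.28 to 1.50). Of 13 genes for other TOP or snoRNA host transcripts, Snhg6 and Snhg5 were lower and none was higher.

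Of 37 ribosome biogenesis genes, 4 were higher and none lower, with a median log2 ratio of 0.14. Tsr1, a 40S maturation factor, had a ratio of 1.82 (1.48 to 2.24), Nop16 1.68 (1.36 to 2.09), Gar1 1.59 (1.253 to 2.01) and Polr1d, a subunit of RNA polymerases I and III, 1.54 (1.44 to 1.65). Mitochondrial ribosomal proteins form a separate ribosome, and of their 78 genes 10 were higher and 1 lower, at a median log2 ratio of 0.24. Mrps24 stood at 24.9 and 75.7 CPM, a ratio of 3.04 (2.65 to 3.50), and Mrps34 at 16.7 and 48.9 CPM, a ratio of 2.93 (2.47 to 3.49). Mrpl52 was 1.76-fold lower.

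Of 29 genes for mTOR and Myc control with enough UMIs, 7 were higher and 3 lower. Ddit4, a stress-induced inhibitor of mTORC1, stood at 33.4 and 97.8 CPM, a ratio of 2.93 (2.59 to 3.31), and was higher in 18 of 18 clusters. Sesn1 had a ratio of 1.88 (1.65 to 2.14), and Deptor was 2.01-fold lower. Of 11 p53 pathway genes, 3 were higher and none lower, and their median log2 ratio was 0.41. Bbc3 had 94 and 176 UMIs, a ratio of 3.63 (2.81 to 4.72), Phlda3 a ratio of 2.32 (1.97 to 2.73) and Trp53 one of 2.29 (2.07 to 2.54).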

How the data were processed

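Droplet 3' single-cell RNA libraries of aortic cells were used, 1 per genotype. The deposited counts are UMIs per cell and gene, made by the authors with Cell Ranger, Seurat and the mm10 build, per the submitters' processing notes; the sources used here give neither versions nor annotation. The deposited mitochondrial ratio per cell is a fraction that the authors computed, and it was used only to filter cells in an alternative. Deposited class and cluster names were kept. All 10345 entries had count sums equal to the deposited totals, and no cell had under 500 UMIs; 2428 second copies of Apoe knockout barcodes were dropped. Depth is given in the report.

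Counts were summed over cells and scaled to 1000000 UMIs. Shares carry exact Clopper-Pearson intervals and ratios exact conditional binomial intervals. UMIs are molecules, not reads, and intervals cover counting error only. Genes needed at least 100 UMIs and a ratio of at least 1.5. Log2 ratios of genes had 0.5 added to each count. Calls by size were tested on simulated counts. Both simulated libraries were drawn from 1 profile with known changes, so that test covers counting error only. Doublets were not called. Members and lists were chosen with earlier results of these data known. Named members were the 5 highest and 5 lowest by mean CPM and by ratio in each population, the 6 that varied most over clusters, paralogs, pseudogenes and a fixed set (Rplp0, Rplp1, Rplp2, Rpsa, Rps6, Rpl13a, Rpl5, Rpl11, Rps19, Rps14, Rpl10, Rps4x, Rpl41). Some named genes are not reported here. Outside the members, Fau, Rack1, up to 4 genes per list and the 5 most alike were named. Start windows came from RefSeq on GRCm38.p6, protein lengths and copies from GENCODE M21. Python 3.11.15, numpy 2.4.6, scipy 1.17.1, pandas 2.3.3 and matplotlib 3.10.9 were used.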

Additional observations from a re-analysis of the deposited data

Results flagged for a closer look

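The share of ribosomal protein UMIs moved in opposite directions in different clusters. The log2 ratio of the double knockout share over the Apoe knockout share was 0.26 in cluster 14 and -0.52 in cluster 13, the highest and the lowest of the 18 clusters compared, and both counting intervals left out 0. The difference between these clusters was not tested, since each rests on 1 library per genotype. Marker sums in both clusters also differed between the libraries, as given above.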

How the results depend on the processing

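With 1 library per genotype, every value rests on counting error alone, and no library could be left out. No paired analysis was possible because each genotype has 1 library. The main shares were 9.43% for the Apoe knockout library and 8.66% for that of the double knockout. With cells of at least 1000 UMIs and under 10% mitochondrial UMIs they were 9.81% and 8.71%, without mitochondrial genes in the total 9.905% and 9.07%, without paralogs, pseudogenes and Rps19bp1 9.32% and 8.58%, and as a mean over cells 8.46% and 8.74%. In cells with 1000 to 2000 UMIs, a range chosen after seeing the data, the Apoe knockout share was 6.82%.

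The log2 ratio of the share turned positive in several settings. In whole libraries it was -0.17 with the filtered cells, 0.047 as a mean over cells and 0.35 at 1000 to 2000 UMIs. In the SMC class without cluster 15 these were -0.15, 0.087 and 0.63, and -0.11 without mitochondrial genes. In cluster 9 they were 0.051, -0.0047 and 0.038, small values for which no interval was taken. As a mean over cells, 12 of 18 clusters were higher in the double knockout, against 6. With the filtered cells, fewer clusters kept 50 cells, and the Apoe knockout share ranged 1.78-fold over them. The cause of these changes was not tested.

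With a ratio of at least 5 to 4, the members higher and lower numbered 15 and 31 in whole libraries and 16 and 26 in cluster 9, and 17 were higher in the SMC class, against 20.2% and 18.3%, 19.0% and 21.7%, and 20.5% of all genes. With a ratio of at least 2, they were 2 and 10 in whole libraries, 2 and 10 in the SMC class, and 3 and 8 in cluster 9, against 2.42% and 4.66%, 2.26% and 1.78%, and 4.05% and 4.18%. In cells with 1000 to 2000 UMIs, they were 20 and 9 in whole libraries and 37 and 5 in the SMC class, against 15.9% and 13.6%, and 21.2% and 14.5%. There, 81 and 80 members had enough UMIs. At that depth the log2 ratio changed sign for 5 of 22 named members, Rplp1 (0.30), Rpsa (0.21), Rps19 (0.35), Rpl10 (0.35) and Rpl13a (0.48, from a value whose interval held 0). Without the 10 cells of shared barcodes, also chosen after seeing the data, the shares were 9.43% and 8.66%, and the member counts in the 3 populations were the same.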
